A study of Homo sapiens with 2 samples.

Results

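The 10 genes described here build or shape caveolae, or belong to the EHD family of membrane-shaping ATPases. They are the caveolin genes CAV1 and CAV2, the cavin genes PTRF (CAVIN1), SDPR (CAVIN2) and PRKCDBP (CAVIN3), the EHD genes EHD1, EHD2, EHD3 and EHD4, and PACSIN2. They were chosen by gene symbol among the 57773 rows of the deposited table of all genes, and all 10 were found. EHD2 was put on the list because of its ratio between the libraries, so that ratio is given as a description.

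Both libraries are total RNA from spheroids of the established line MDA-MB-231, derived from a human breast adenocarcinoma of the triple negative type and kept in DMEM with FBS, penicillin and streptomycin. The Control group was 1 spheroid library labelled as control, and the TGS24 group was 1 spheroid library treated with TGS24, which the labels name by this code alone, without a dose or an exposure time. The stated purpose of the series was to look at genes of the MAPK12 pathway under TGS24. With 1 library per group every difference below is one between 2 libraries, without a replicate check and without a p-value.

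Caveolae are small flask-shaped pits of the plasma membrane, rich in cholesterol, that buffer membrane tension and gather signalling proteins. Caveolins insert into the membrane, cavins form a coat on the cytoplasmic side, and EHD2 assembles as a ring at the neck and holds the pit at the surface. The other EHD proteins act mainly on endosomes, where they help to return internalised receptors to the surface, and PACSIN2 is an F-BAR protein that bends membrane at the caveola neck and at endosomes.

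The 4 EHD genes encode closely related proteins, so the coding bases around their nucleotide-binding loop, the most conserved kind of stretch in such ATPases, are shown to let the paralogs be told apart. Each line runs 5′ to 3′ over the 24 bases of the loop and 18 bases on either side, from GENCODE 29 transcripts on GRCh38. Capitals in EHD1, EHD3 and EHD4 mark bases that differ from EHD2, and capitals in EHD2 mark bases that differ from all of the other three.
EHD2: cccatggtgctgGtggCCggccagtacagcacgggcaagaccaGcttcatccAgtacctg
EHD1: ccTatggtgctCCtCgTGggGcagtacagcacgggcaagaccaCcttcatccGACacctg
EHD3: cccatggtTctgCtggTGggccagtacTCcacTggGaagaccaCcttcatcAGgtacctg
EHD4: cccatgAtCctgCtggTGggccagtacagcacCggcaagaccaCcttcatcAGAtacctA
Even in this stretch of 60 bases each paralog differed from EHD2 at 11 bases. Over the whole aligned coding sequence EHD2 shared 77.7% of bases with EHD1, 75.5% with EHD3 and 74.0% with EHD4, and its longest identical run with any of them was 32 bases, with EHD4. EHD1 and EHD3 were the closest pair, with 82.3% identity and a longest identical run of 54 bases. Of the 50-base windows of the longest EHD2 transcript 0.0848% occurred in a transcript of another gene, and none of those genes was an EHD paralog.

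The Control library held 8570632 reads and the TGS24 library 16145121. The small RNAs RN7SL1 and RN7SK took 41.1% and 13.9% of the Control reads and 31.6% and 10.4% of the TGS24 reads. Ratios are TGS24 over Control after scaling the libraries with TMM, which sets a typical gene to a ratio near 1, and a value of 0 on the log2 scale is no difference. A gene was tested with at least 20 reads over both libraries, which 10081 genes reached. It was called higher or lower when its ratio was at least 2-fold and its 95% interval left out 0. The intervals cover counting error of read pairs only. Levels are RPKM values, reads per exon length and scaled library size, so that genes of different length can be compared. In bulk RNA, fewer cells of a type and less RNA per cell cannot be told apart.

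Of the 10 genes 7 reached 20 reads, and 2 of those, EHD2 and PTRF, were called lower in TGS24, while none was called higher. Over all tested genes 6.44% were called lower and 12.7% higher. EHD2 was on the list for this very contrast, so nothing is read from its part of the count, which leaves PTRF as 1 of 6 others. The median log2 ratio of these 6 was -0.33, beside -0.004 for all tested genes, and 4 of the 6 were below 0, beside 50.2% of all tested genes. After centring within GC classes their median was -0.15. EHD1, at 0.04, then lay above 0 with SDPR and PACSIN2, while PTRF, EHD4 and CAV1 lay below 0.

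**Figure D1:**
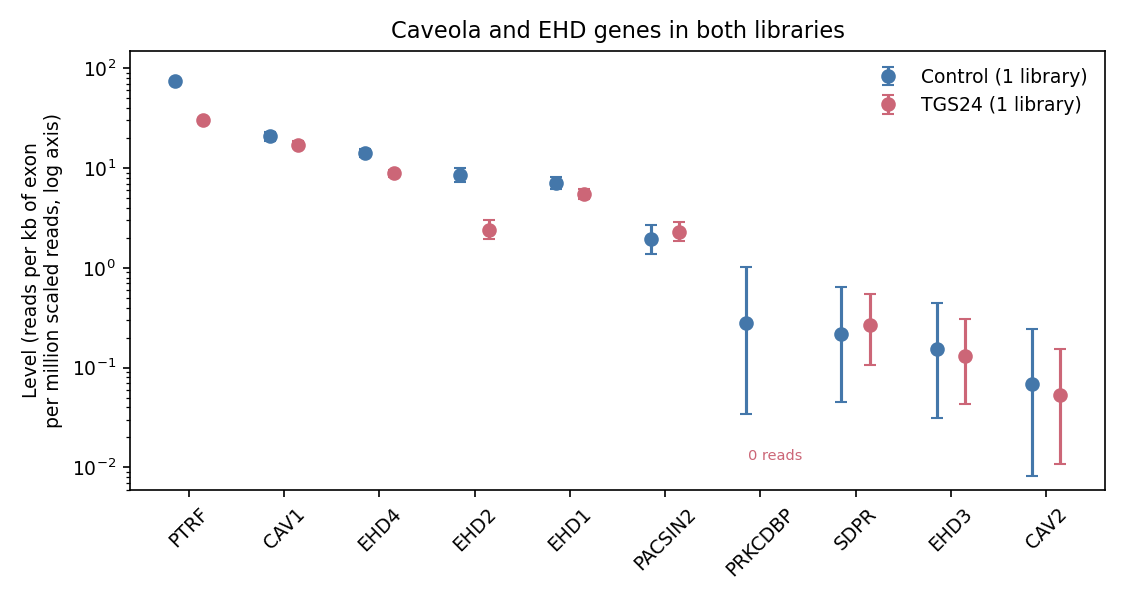
Level of each gene in the Control and TGS24 libraries, in RPKM from scaled library sizes on a log axis, with 95% counting intervals as bars. PTRF is highest in both libraries, at 74.3 and 30.1, EHD2 goes from 8.54 to 2.42, and the points of CAV2, SDPR, PRKCDBP and EHD3 lie below 1, with PRKCDBP at 0 reads in TGS24.

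CAV1, the main structural protein of caveolae outside muscle, had 725 reads in Control and 1139 in TGS24. Its level was 21.0 in Control, with an interval from 18.9 to 23.3, and 17.1 in TGS24, with an interval from 15.7 to 18.6. The log2 ratio was -0.29, from -0.49 to -0.10, far from the 2-fold threshold. With median-of-ratios scaling that interval ran from -0.35 to 0.04 and held 0. CAV2, which forms mixed oligomers with CAV1, had 4 and 6 reads, under the minimum. With so few Control reads, 33 TGS24 reads or more, a 4.28-fold increase, were needed to bring the interval above 0, so a smaller increase of CAV2 was not detectable. No decrease of CAV2 was detectable either, since PRKCDBP, with 4 Control reads and 0 in TGS24, had an interval that reached up to 1.47.

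PTRF encodes cavin-1, the cavin without which caveolae do not form. It was counted 2410 times in Control and 1882 times in TGS24, though the TGS24 library was the deeper one. Its level was 74.3 in Control, above 96.8% of the tested protein-coding genes, and 30.1 in TGS24, above 92.0%. PTRF was 2.46-fold lower in TGS24, with a log2 ratio of -1.30 and an interval from -1.43 to -1.18. Of the 5533 genes with at least 100 reads, 89 had a ratio as low as PTRF or lower. PTRF transcripts are rich in G and C, at 59.9%, and with ratios centred within GC classes the log2 ratio was -0.91, from -1.04 to -0.79, under the 2-fold threshold.

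The other cavins were rare in both libraries. SDPR encodes cavin-2, which helps to bend the caveolar membrane, and had 6 and 14 reads, just at the minimum of 20. Its log2 ratio was 0.23, and the interval, from -1.85 to 2.86, was too wide to show a difference. PRKCDBP encodes cavin-3, a cavin linked to signalling and to caveola movement. Its counts were 4 in Control and 0 in TGS24. The level was 0.282 in Control, from 0.034 to 1.02, and the interval of the level in TGS24 reached up to 0.270. The interval of its ratio reached up to 1.47 on the log2 scale and so held 0. In the reference annotation 557 exon bases of PRKCDBP overlap a gene on the opposite strand, and no source used here states how strand was handled, so even its few reads are uncertain.

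The balance between cavin-1 and caveolin-1 messages can be read without any scaling of the libraries, since both genes are counted in each. There were 3.32 PTRF reads for each CAV1 read in Control and 1.65 in TGS24. Per length these were 3.54 and 1.76. On the log2 scale this balance differed by 1.01 between the libraries, with an interval from 0.78 to 1.24, or by 0.57, from 0.34 to 0.80, after GC centring. PTRF made up 76.5% of all caveolin and cavin reads in Control, with a Clopper-Pearson interval from 74.3% to 78.6%, and 61.9% in TGS24, from 59.4% to 64.3%. CAV1 made up 23.0% and 37.5%.

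**Figure D2:**
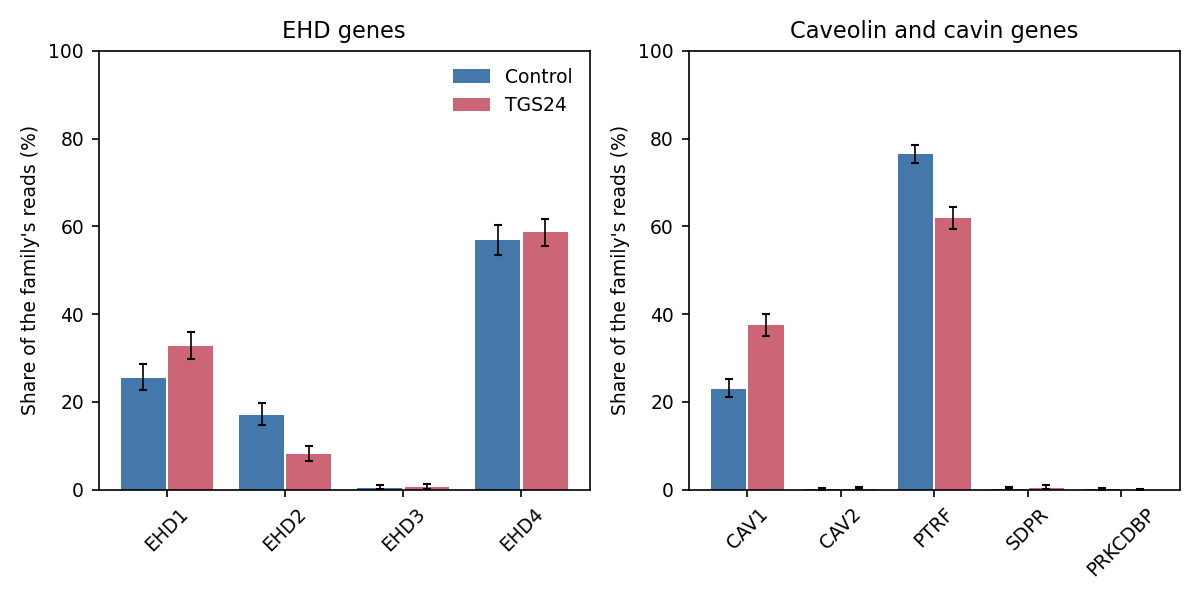
Share of the reads of each family taken by each gene, in percent, for the EHD genes on the left and the caveolin and cavin genes on the right, with 95% Clopper-Pearson intervals on read pairs as bars. EHD2 holds 17.1% of EHD reads in Control and 8.01% in TGS24, and PTRF holds 76.5% and 61.9% of caveolin and cavin reads.

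EHD2, the ATPase of the caveola neck, had 284 reads in Control and 155 in TGS24. Its level was 8.54 in Control, from 7.19 to 10.1, and 2.42 in TGS24, from 1.93 to 3.04. As EHD2 was chosen for this contrast, these values and the ranks below are a description. EHD2 was 3.49-fold lower, with a log2 ratio of -1.80 and an interval from -2.23 to -1.40. Its ratio ranked 138 from the bottom of the 10081 tested genes, and 16 of the 5533 genes with at least 100 reads, itself included, were as low or lower. In the authors' deposited table of filtered genes EHD2 has a log2 value of -1.81, and the lower limit written in the closing lines of the authors' deposited table is -2.15. The shorter list of genes they called, also the authors' deposited table, holds none of the 10.

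EHD4, which acts on early endosomes, had the most reads of the family, 946 in Control and 1136 in TGS24. Its level was 14.2 in Control and 8.83 in TGS24, and its log2 ratio was -0.68, from -0.86 to -0.50, below 0 but not 2-fold. Exons of EHD4 overlap an opposite-strand gene over 507 bases, but that gene had only 2 reads in each library. EHD1, the recycling ATPase, had 424 and 635 reads and a log2 ratio of -0.36, from -0.62 to -0.10, or from -0.48 to 0.04 with median-of-ratios scaling. EHD3, its closest relative, had 6 and 10 reads, under the minimum, and its interval ran from -2.57 to 2.48.

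Set against its own family, EHD2 had 0.670 reads for each EHD1 read in Control and 0.244 in TGS24. The comparisons with EHD2 here are only described, since it was chosen for its ratio. From these reads, without the prior count, EHD2 lay 1.46 below EHD1 on the log2 scale, with an interval from 0.96 to 1.94 for the difference. EHD1 and EHD2 have nearly the same GC content, 61.1% and 61.6%, and stand in the same GC class, so centring by class leaves their difference as it is. The share of EHD2 among all EHD reads was 17.1% in Control, from 14.6% to 19.8%, and 8.01% in TGS24, from 6.41% to 9.94%. The share of EHD1 was 25.5% and 32.8%, and that of EHD4 57.0% and 58.7%. All EHD reads together had a log2 ratio of -0.72, and those of EHD1, EHD3 and EHD4 without EHD2 one of -0.57, with an interval from -0.72 to -0.43.

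PACSIN2 had 75 reads in Control and 172 in TGS24, with levels of 1.94 and 2.31. Its log2 ratio was 0.25, from -0.33 to 0.82, an interval that held 0. It was the only tested gene of the list besides SDPR above 0. In Control the level of EHD2 was above that of PACSIN2 and its interval overlapped that of EHD1, which ran from 6.13 to 8.06. In TGS24 the interval of EHD2 overlapped that of PACSIN2, from 1.85 to 2.86, and lay below that of EHD1, from 4.90 to 6.12.

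**Figure D3:**
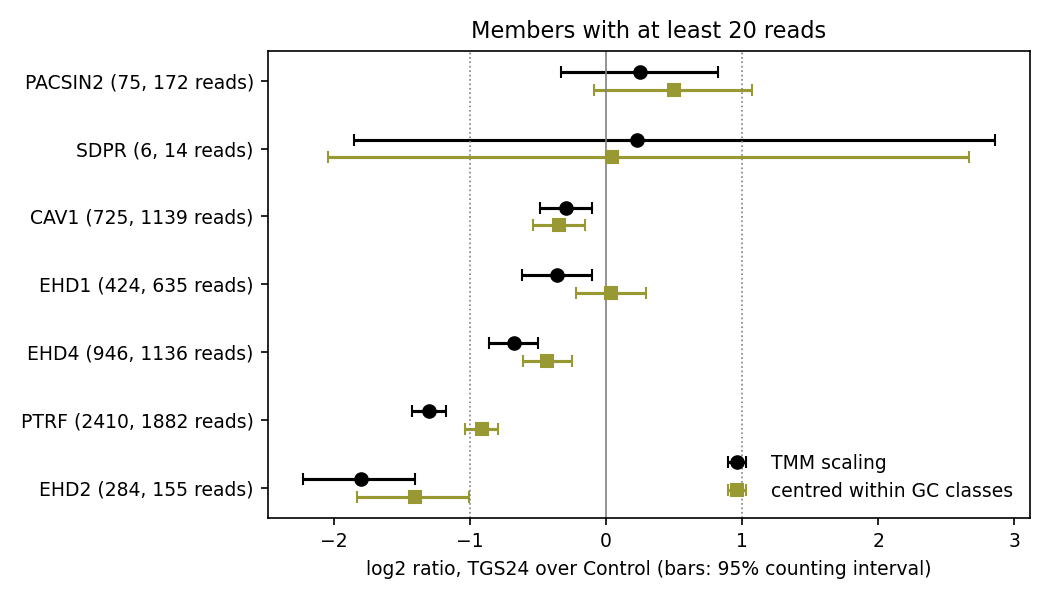
The log2 ratio of TGS24 over Control for the 7 genes with at least 20 reads, with 95% counting intervals, after TMM scaling (circles) and after centring within GC classes (squares). EHD2, which was chosen for its ratio, stays past the 2-fold line at -1.40 after centring. PTRF moves to -0.91, and EHD1 moves from -0.36 to 0.04.

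From the lowest to the highest log2 ratio the tested genes ran EHD2, PTRF, EHD4, EHD1, CAV1, SDPR and PACSIN2. Pairs of genes were compared from their reads directly, without scaling or a prior count, so that the differences can depart a little from those of the printed ratios. The 95% intervals were not adjusted for the number of pairs. Of the 15 pairs without EHD2, 7 differed by more than counting error, and 8 after GC centring. The 6 pairs with EHD2 rest on a ratio for which it was chosen and are only described, such as EHD2 at 0.52 below PTRF, from 0.08 to 0.94. PTRF lay 0.62 below EHD4, from 0.40 to 0.84. EHD4 and EHD1 differed by 0.32, with an interval that barely left out 0, from 0.007 to 0.64. CAV1 lay 0.07 above EHD1, with an interval from -0.26 to 0.39 that held 0, but after GC centring it lay below EHD1, at -0.38 with an interval from -0.71 to -0.06. CAV1 lay 0.39 above EHD4, from 0.12 to 0.65, and after centring the difference was 0.09, from -0.18 to 0.35. SDPR differed from none of the others beyond counting error.

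Ratios in these libraries went with GC content, and the 7 tested genes of the list were spread over the GC classes from the fourth to the tenth. In the class with the highest GC content, which holds EHD1 and EHD2, the median log2 ratio was -0.40, and 12.0% of 997 genes were called lower. EHD1 lay near the middle of that class, with 536 genes at or below it, and EHD2 near its lower end, with 16. In the class of PTRF the median was -0.39 and 75 of 996 genes were at or below PTRF. CAV1 has a lower GC content, 46.2%, in a class with a median of 0.05, and stood at -0.34 after centring. EHD4 stood at -0.43 and PACSIN2 at 0.50, from -0.09 to 1.07. After centring 6.14% of genes were called lower and 5.48% higher. EHD2, at -1.40, from -1.83 to -1.004, was then the single gene of the list to be called. As EHD2 was chosen for its ratio, that call and its place in its GC class are only described. What links GC content and the ratios was not tested.

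**Figure D4:**
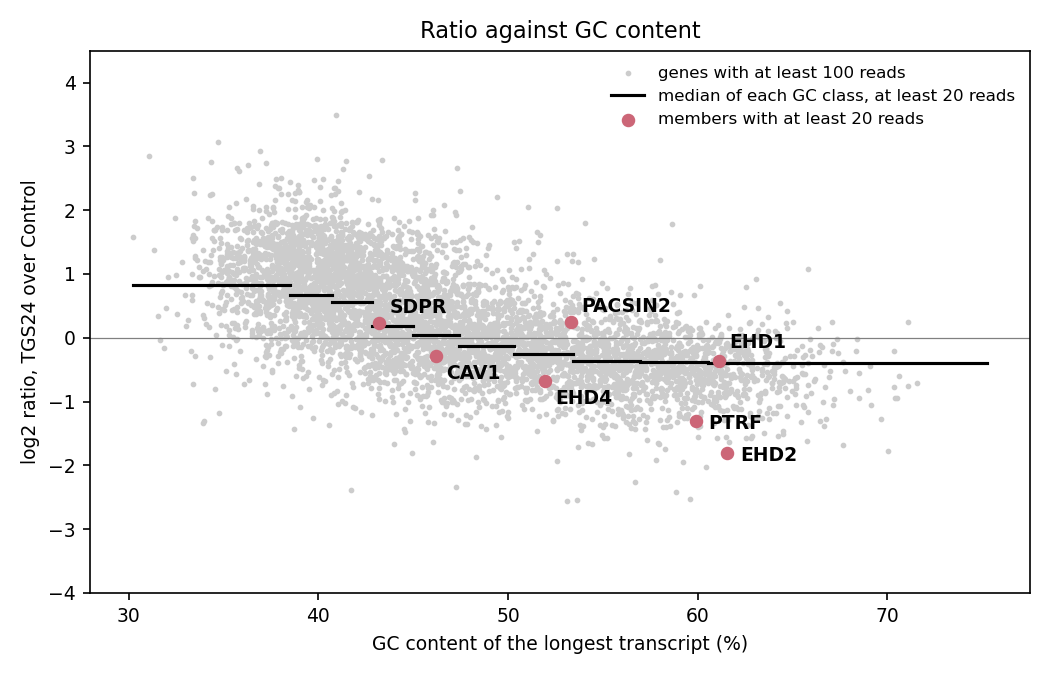
The log2 ratio of TGS24 over Control against the GC content of the longest transcript in percent, for genes with at least 100 reads (grey), with the median of each GC class over genes with at least 20 reads (black lines) and the 7 tested genes of the list (red). EHD1 lies on its class median of -0.40 and EHD2, at nearly the same GC content, lies at -1.80.

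The 5 genes with at least 100 reads whose log2 ratio was nearest to that of EHD2 were TMED3, CEBPD, PHF2, AKT2 and ANXA2P2, between 0.01 and 0.08 away. TMED3 encodes a p24 cargo protein of the early secretory pathway, CEBPD a transcription factor, PHF2 a histone demethylase, AKT2 a kinase of insulin signalling, and ANXA2P2 is a pseudogene of an annexin gene, whose reads may be shared with it. With 2 libraries this likeness rests on 1 ratio per gene. CEBPD was by far the deepest of them, on 3960 and 2225 reads.

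The promoters of EHD2, which was called lower, and of CAV1, which was not, are shown over the 250 bases before the first RefSeq start on GRCh38.p14, with GC boxes (GGGCGG on either strand) in capitals. The deposited data were made on hg19, and their values are not placed on these coordinates. The EHD2 window is chr19:47713172-47713421 on the plus strand and the CAV1 window is chr7:116524759-116525008 on the plus strand.
EHD2: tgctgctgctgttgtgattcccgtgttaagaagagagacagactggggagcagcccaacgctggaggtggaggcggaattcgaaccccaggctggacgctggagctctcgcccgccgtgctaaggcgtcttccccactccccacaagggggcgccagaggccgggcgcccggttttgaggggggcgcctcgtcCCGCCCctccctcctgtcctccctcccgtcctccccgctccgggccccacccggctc
CAV1: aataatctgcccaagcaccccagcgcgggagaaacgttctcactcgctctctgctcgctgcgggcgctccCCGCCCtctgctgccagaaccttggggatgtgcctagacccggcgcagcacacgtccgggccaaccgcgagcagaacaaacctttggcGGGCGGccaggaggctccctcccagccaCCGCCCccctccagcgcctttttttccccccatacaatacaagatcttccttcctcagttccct
The EHD2 window held 1 GC box and the CAV1 window 3, and 42.6% of 35116 promoter windows of the same length held at least 1. Searched on both strands, neither window held the CCAAT box, which occurs in 32.0% of all windows. Neither held the TATA box, searched as TATAAA and found in 10.7% of windows. The TEAD motif, searched as GGAATG and found in 11.9%, was in neither. The AP-1 motif, searched as TGANTCA and found in 6.57%, was in neither as well. No matches of different motifs overlapped in any window of the list. EHD4 had 3 GC boxes and 2 matches to the CCAAT box, EHD3 had no match to any of these motifs, and SDPR had 1 TEAD match alone. The CAV2 starts had 6 and 3 GC boxes, and the EHD1 starts 0 and 5, the second with 2 matches to the CCAAT box and 1 to the TATA box. PACSIN2 had a TEAD match at 4 of its 6 starts, though some of these windows overlap and hold the same match. Another of its starts had 2 GC boxes and 3 matches to the CCAAT box. RefSeq windows were at hand for 8 of the 10 genes, not for PTRF and PRKCDBP. A match is a run of letters, not a shown binding site.

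The list was read beside 6 lists of related membrane genes, of which 65 of 81 genes were tested. Of these 65, 6 were called higher and 2 lower, and their median log2 ratio was -0.08. Among 10 other caveola proteins 6 were tested, with a median of -0.55, or -0.33 after GC centring. All 6 were below 0, beside 50.2% of all tested genes, but only ROR1 was called. ROR1, a receptor tyrosine kinase that also scaffolds cavin-1 and caveolin-1, was 5.32-fold lower, on 28 and 8 reads, with an interval from -4.81 to -1.08, and stood at -2.60 after GC centring. CAV3, MURC, PACSIN1 and NOSTRIN of this list were under 20 reads. Of the flotillins and stomatins, which mark membrane domains other than caveolae, FLOT2 was 2.15-fold lower, on 2156 and 1932 reads. The other 2 tested genes passed in neither direction, and the median was -0.88, or -0.49 after GC centring. FLOT2 stood at -0.72 after centring, and no gene of that list was called with median-of-ratios scaling or with scaling over genes of any count, while 2 were with scaling over genes of at least 100 reads. Called lower were thus 1 of 6 and 1 of 3, beside 6.44% of all genes.

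Of the partners of EHD proteins and recycling genes 3 of 15 tested genes were called higher, beside 12.7% of all genes, and none lower. The median was 0.21, or -0.01 after GC centring, and with at least 100 reads as the minimum 1 gene was called. VPS35, the retromer core subunit, was 2.41-fold higher, on 519 and 2410 reads. EPS15, an endocytic adaptor with EH domains, was 2.07-fold higher, on 342 and 1365 reads, and RAB11FIP2, a recycling adaptor that binds EHD1, was 2.92-fold higher, on 8 and 50 reads. After GC centring these were at 0.71, 0.37 and 0.72, under the threshold. Their transcripts have a GC content between 36.6% and 41.8%.

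Genes of the clathrin route, the main alternative to caveolae for uptake, had 2 of 16 called higher, a share like the 12.7% of all genes. Their median was -0.19, or 0.11 after GC centring, and 1 gene was called lower with scaling over genes of at least 100 reads. CLTC, the clathrin heavy chain, was 2.47-fold higher, on 4446 and 21141 reads, and PICALM, which recruits clathrin to the membrane, was 2.85-fold higher, on 2418 and 13274 reads. Of the genes for BAR domain proteins, which bend membranes as PACSIN2 does, FNBP1L was 2.60-fold higher and the other 12 tested genes passed in neither direction, beside 12.7% of all genes called higher. With median-of-ratios scaling 3 were called higher, and with scaling over genes of at least 100 reads 1 was higher and 1 lower. The median was 0.45, or 0.12 after GC centring. CLTC, PICALM and FNBP1L stood at 0.74, 0.95 and 0.70 after centring. Beside 12.7% of all genes called higher and 6.44% lower, none of 12 tested genes of sterol synthesis and uptake was called. These genes supply the cholesterol of caveolae. Among them SQLE, with 3 and 19 reads, stood at 1.36 on the log2 scale and FDFT1, with 20 and 18 reads, at -0.996, both with intervals that held 0, and the median of the list was 0.01.

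**Figure D5:**
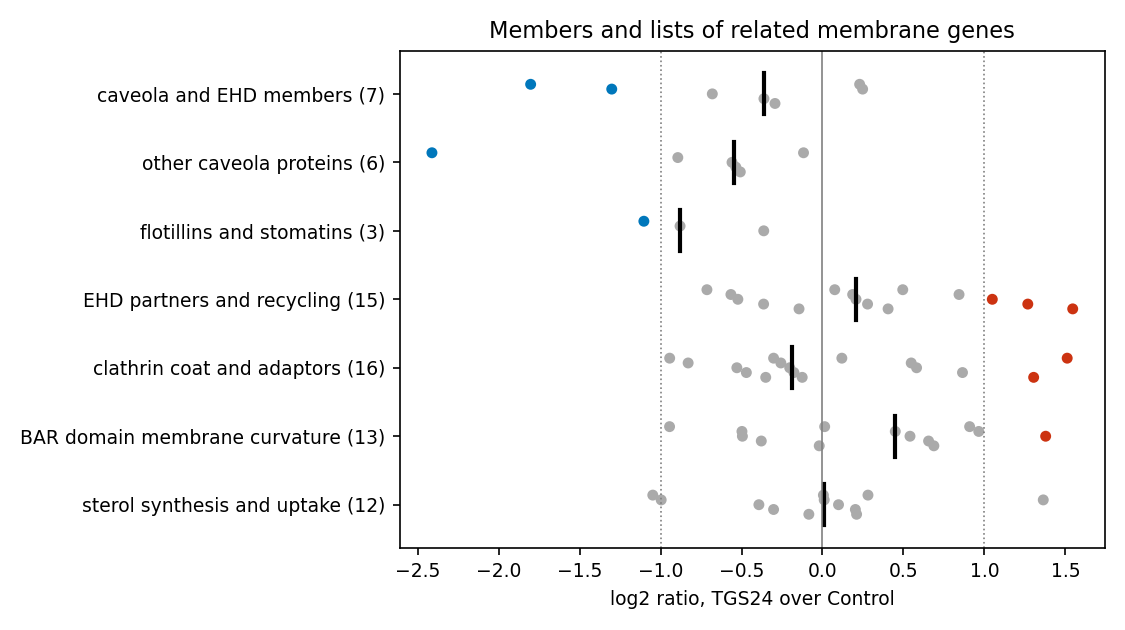
The log2 ratio of TGS24 over Control for the tested genes of the list and of 6 lists of related membrane genes, with the number tested in brackets, the list median as a black bar, genes called lower in blue and genes called higher in red. Called lower are 2 of 7, 1 of 6 and 1 of 3 in the top 3 lists, beside 6.44% of all genes. The 2 of 7 include EHD2, which was chosen for this ratio, and without it 1 of 6 was called. Called higher are 3 of 15, 2 of 16 and 1 of 13 in the next 3, beside 12.7%. After GC centring the flotillin, recycling, clathrin and BAR domain lists hold no called gene.

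Caveolae are most abundant in endothelial cells, fat cells and muscle, and markers of these and of other cell types were checked. Of 33 such markers 17 were tested and none was called, beside 6.44% of all genes called lower and 12.7% higher. Several tested markers rested on few reads, and their intervals were wide. For LIPE, on 10 and 14 reads, the interval ran from -2.33 to 1.54. The endothelial markers summed to 5.54 RPM, from scaled library sizes, in Control and 4.41 in TGS24, the fat cell markers to 2.48 and 1.53, with ADIPOQ at 0 in both, the muscle markers to 55.3 and 45.3 and the fibroblast markers to 11.9 and 7.53. Markers of leukocytes and blood summed to 693 and 760, mostly from HBB, on 4860 and 10453 reads, with CD68 at 0 in both. The labels name no blood cells, and the source of the HBB reads was not tested. PECAM1, one of the 33, was not found by its symbol and adds nothing to these sums. Of the markers of MDA-MB-231 cells, 6 of 7 tested genes were called lower, beside 6.44% of all genes. Their median log2 ratio was -1.38, and the markers summed to 613 in Control and 239 in TGS24. VIM and CD44 stand in rows that were left out by the checks described under the processing. The called ones were LGALS1, ANXA2, TMSB10, AXL, MMP14 and S100A6. ANXA1, tested but not called, stood at 0.10 on 13 and 27 reads, and S100A4, on 2 and 4 reads, was under the minimum. This list was chosen with earlier results of these data known, so its share of called genes is only described. After GC centring the list had a median of -1.02, and MMP14 at -0.94 and S100A6 at -0.78 were under the threshold. The called markers moved in the same direction as EHD2 and PTRF, and their part in those ratios was not tested.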

How the data were processed

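Per the labels' protocols, spheroid RNA was isolated with Trizol and read from both ends over 150 bp. Per the submitters' processing notes, the tools were DESeq2, featureCounts 1.5.2, STAR, Bowtie2 2.2.4 and Trimmomatic, and the build hg19, with no roles stated. How strand was handled is not stated. What the authors deposited per gene is a normalized signal, and the steps between its values are those of a whole count over 1 size factor per library. Dividing by these steps gave whole reads for 99.98% of values in each library, within a relative tolerance of 1e-06. The deposited ratio (fold) and log2 value are TGS24 over Control, by the authors. Of the Control counts 75.3% were even and of the TGS24 counts 73.5%, as when both mates are counted, so intervals rest on read pairs. Rows that repeat an identifier, stand out of identifier order, are not whole reads or differ between tables (48) were left out, none of them a gene of the list.

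Recovered reads were scaled with TMM (edgeR 4.0.16, R 4.3.3). A prior count of 2, in proportion to depth, was added for log2 ratios, with 95% Clopper-Pearson intervals (Python 3.11.15, scipy 1.17.1). A count test could not be run with 1 library per group. GC content came from the longest transcript and length from merged exons of GENCODE 29, by Ensembl identifier, and GC centring subtracted the median ratio of each of 10 classes. Alternatives were other scalings, read minimums, prior counts, GC centring, gene classes and counting units. The log2 ratio, its interval and the call were run on simulated counts with known folds. TMM scaling, GC centring, the recovery of reads and the comparison of pairs were not part of that run. The genes and lists were chosen with earlier results of these data known. Named are all genes of the list, the called genes of each other list or else its 3 largest ratios (1 of which is not reported here), and the 5 genes nearest to EHD2; other markers and list genes are named after their values were seen.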

Additional observations from a re-analysis of the deposited data

How the results depend on the processing

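EHD2 was called lower under the main setting and all 15 alternatives, with log2 ratios from -1.96 to -1.40. PTRF was called lower in 15 of these 16 settings, from -1.46 to -0.91, and not with GC centring, which left 1 gene of the list called lower. These settings are not all separate checks. Changing the counting unit, or the read minimum with the main scaling kept, left both ratios as they were. A minimum of 100 reads gave both the same ratios as scaling over genes with at least 100 reads. EHD2 was chosen for its ratio, so its range is a description. CAV1 ranged from -0.46 to -0.13, EHD4 from -0.84 to -0.43, EHD1 from -0.52 to 0.04, above 0 only with GC centring, and PACSIN2 from 0.09 to 0.50, none of them called in any setting. The median of the tested list ranged from -0.68 with at least 100 reads, where SDPR drops out and the scaling shifts, to -0.17 with no filter, where CAV2, PRKCDBP and EHD3 come in and the scaling shifts. Over all genes 1277 were called higher and 649 lower. GC centring, which sets each class median to 0, gave 546 and 612. Scaling over genes with at least 100 reads gave 988 and 932 and median-of-ratios factors 1563 and 436, and these moved all log2 ratios by -0.16 and 0.14. Other read minimums changed both the genes tested and the scaling: at least 100 reads gave 874 and 410, with a shift of -0.16, and no filter 1630 and 522, with a shift of 0.16. With the main scaling kept, alternatives chosen after seeing the data, these minimums gave 1117 and 246, and 1294 and 806. No paired analysis was possible because each group held 1 library, and for the same reason no library could be left out. Depth limits CAV2, SDPR, PRKCDBP and EHD3, each with at most 20 reads.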
